A study of Mus musculus with 12 samples.

Results

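Sfr1, Bard1, Rad54b, Mus81, Polq and Fanca encode proteins that repair DNA double-strand breaks and interstrand crosslinks. They were taken by symbol from a deposited table of 2281 genes as genes of homologous recombination, polymerase theta end joining and Fanconi anaemia repair, and all 6 were present and passed the filter on low values, as did 2063 genes of the table. The 6 were selected on their FPKM in the same 12 libraries, with earlier results in view, so their levels and the differences between groups are descriptions, with no p-value. How many of them passed a threshold is given only beside the share of all tested genes, and nothing is read from it. The libraries were made from GC1 cells, an established mouse line derived from spermatogonia, and all carry the label 24 h. They form 4 groups of 3, namely wild type (WT), Ythdf2 knockout (Ythdf2-ko, line code YC5), the knockout with an overexpression control (Ythdf2-ko-OE-CTR) and the knockout overexpressing Setdb1 (Ythdf2-koOE-setdb1). The last 3 groups share the knockout and 1 line code, so an effect of the knockout cannot be told apart from other differences between that line and the wild type. The sources used here do not give the edited site, the number of clones, the vector or its promoter, nor do they say whether the 3 libraries of a group came from separate cultures, so the spread between them may be technical.

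Homologous recombination repairs a broken chromosome by copying an intact sister: the break is resected to single strands, RPA coats them, and BRCA1, BARD1 and BRCA2 help prepare the strands for invasion of the sister. Polymerase theta instead anneals short matching stretches at the break and joins the ends with small losses. The Fanconi anaemia pathway detects crosslinks that bind both DNA strands together and hands the unhooked break to recombination. Germ cells rely on homologous recombination both for mitotic repair and for meiotic recombination. YTHDF2 is a reader protein of m6A-modified RNA, and SETDB1 is a histone H3K9 methyltransferase. The series concerns how both act in DNA damage repair in spermatogonia.

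The table gives FPKM, fragments per kilobase of transcript scaled to library size, which can be compared between genes. All 2281 rows were marked significant by the authors, so shares of changed genes describe a preselected set. The adjusted p-values given below were computed within that set. Read depth is unknown, and the FPKM of the table summed to between 75955 and 81924 per library. Ythdf2 RNA was lower in every knockout library and not lost: its level was 8.51, 9.33 and 9.15 FPKM in the wild type, 5.79 to 6.28 in the knockout, 6.04 to 6.24 in the overexpression control and 4.23 to 4.99 with Setdb1. Setdb1 was not found in the table by its symbol, so its transcript was not analysed here. Its overexpression is taken from the labels. Of 22 germ cell and spermatogonial markers 5 were in the table (Etv5, Bcl6b, Foxo1, Cd9 and Itga6), with a summed level of 118 to 119 FPKM in wild type and 71.3 to 86.4 FPKM in the knockout groups. The defining germ cell genes Ddx4 and Dazl were not analysed here. Of 15 testis somatic markers 4 were in the table, with sums of 156 to 158 FPKM in wild type and 82.5 to 101 FPKM in the knockout groups. Of 9 fibroblast markers Pdgfra and Pdgfrb were in the table, with sums of 6.74 to 6.85 FPKM in wild type and 4.94 to 5.95 FPKM in the knockout groups, and Pdgfrb stayed at or below 0.241 FPKM. Of 7 epithelial markers 4 were in the table, with sums of 838 to 871 FPKM in wild type and 330 to 399 FPKM in the knockout groups. Single genes made up much of these sums: Cd9 reached 85.3 FPKM, Clu 146 FPKM and Krt19 702 FPKM. The sums therefore do not show how the other markers moved. The part of these markers in the differences of the 6 genes was not tested. Haemoglobin transcripts were present in wild-type libraries 2 and 3 and knockout libraries 1 and 2 (mean of 4 haemoglobin genes 45.1 to 150 FPKM), against at most 1.28 FPKM in the other 8 libraries. Of 11 blood markers 8 were in the table, with sums of 6.74 to 544 FPKM in wild type, 0.760 to 634 FPKM in the knockout and at most 0.779 FPKM in the other groups. For some of the results that rest on those 4 libraries, the value without them is also given.

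Sfr1 lies at chr19:47731682-47735588 on the plus strand and Mus81 at chr19:5482345-5488402 on the minus strand (GRCm38, GENCODE M21). Bard1 lies at chr1:71027498-71103146 (minus), Rad54b at chr4:11558922-11615805 (plus), Polq at chr16:37011786-37095417 (plus) and Fanca at chr8:123268300-123318576 (minus). All 6 are protein-coding and carry the deposited annotation terms for DNA repair and for the response to DNA damage, terms held by 147 and 205 genes of the table. Rad54b shares 2068 exonic bases with Fsbp on the same strand, 35.8% of its own exonic bases, so reads of these 2 genes may be mixed in its FPKM. Fanca overlaps 920 exonic bases of Zfp276 on the opposite strand (10.5% of its exonic bases) and Mus81 overlaps 173 of Efemp2 (4.85%), and the sources used here do not say whether counting used strand.

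The promoters of 4 of the genes are shown because 3 of them (Sfr1, Bard1 and Polq) were lower in the knockout and the other (Mus81) was higher. RefSeq windows (GRCm38.p6) of 250 bases before and 50 after the start site were available for 5 of the 6 genes (Rad54b is the other). They were searched on both strands for E2F-type sites (TTCCCGC, or either of its variants TTGGCGC and TTCGCGC), which E2F factors bind at genes of S phase, for the cell cycle homology region (TTTGAA or TTCGAA), an element of genes active in G2 and mitosis, and for the CCAAT box (CCAAT), which NF-Y binds. Capitals mark the matches. The stretches end at the start of the GENCODE gene, except that of Polq, which runs on for 20 bases, so some matches given after them lie outside the letters shown.
Bard1, chr1:71103147-71103222, minus strand: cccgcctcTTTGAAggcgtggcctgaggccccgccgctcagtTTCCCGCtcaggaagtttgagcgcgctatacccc
Polq, chr16:37011586-37011805, plus strand: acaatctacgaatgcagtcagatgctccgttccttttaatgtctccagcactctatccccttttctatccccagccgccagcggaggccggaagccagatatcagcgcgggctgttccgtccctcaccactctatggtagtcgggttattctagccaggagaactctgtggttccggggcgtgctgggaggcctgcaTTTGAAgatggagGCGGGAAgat
Sfr1, chr19:47731506-47731681, plus strand: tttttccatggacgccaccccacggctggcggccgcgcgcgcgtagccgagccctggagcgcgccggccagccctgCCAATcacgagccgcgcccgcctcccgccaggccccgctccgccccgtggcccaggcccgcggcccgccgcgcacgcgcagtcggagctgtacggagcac
Mus81, chr19:5488403-5488602, minus strand: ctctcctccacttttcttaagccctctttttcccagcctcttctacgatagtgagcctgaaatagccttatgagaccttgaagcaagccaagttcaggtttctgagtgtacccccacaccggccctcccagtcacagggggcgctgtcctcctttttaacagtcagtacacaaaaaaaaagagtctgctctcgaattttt

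Bard1 and Polq each held 1 E2F-type match and at least 1 cell cycle homology region. In Bard1 these lay at -208 to -202 and at -242 to -237 from the RefSeq start site. In Polq the E2F-type match lay at 11 to 17 after the start, and its 2 cell cycle homology matches at -242 to -237 and across the start (-3 to 3). Sfr1 and Fanca each held 2 CCAAT boxes and neither of the other motifs, and the Mus81 window held no match. Across all 32851 RefSeq windows of this length, 8.07% held an E2F-type match, 19.2% a cell cycle homology region and 37.4% a CCAAT box. Among the 2106 windows of tested genes the shares were 16.1%, 14.9% and 38.7%. A match is a description of letters, and binding was not measured.

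**Figure D1:**
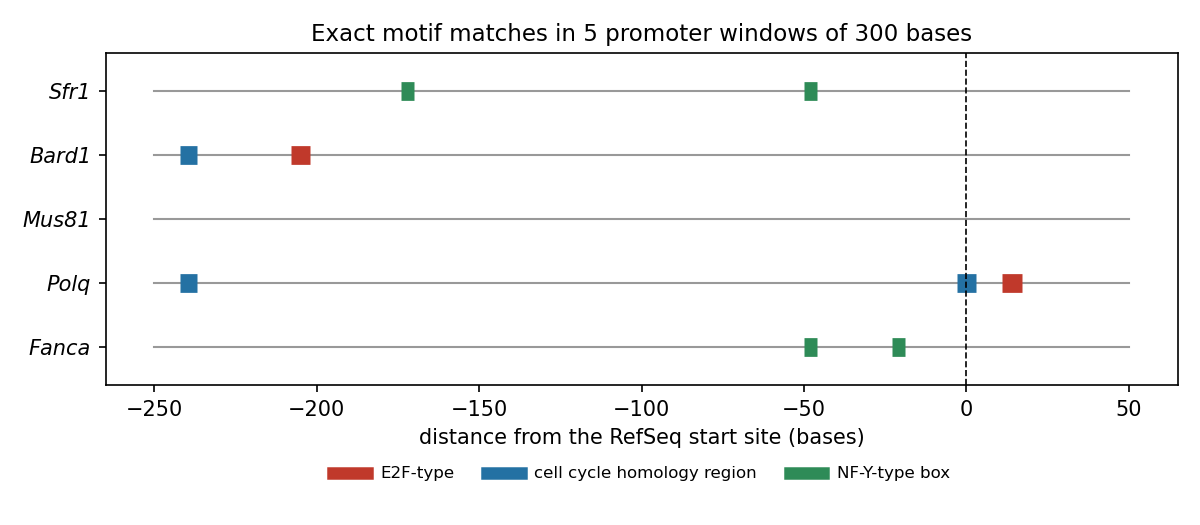
Exact motif matches (coloured blocks) in RefSeq promoter windows of 5 genes against distance from the start site in bases; the dashed line is the start site. Bard1 and Polq hold an E2F-type match and a cell cycle homology region, Sfr1 and Fanca hold 2 CCAAT (NF-Y-type) boxes each, and Mus81 holds none of these motifs.

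The longest protein-coding transcripts of the 6 genes differed in GGACT, a form of the sequence at which m6A is commonly placed. The 1657-base Sfr1 transcript held no GGACT and the 5659-base Bard1 transcript held 1. The 8552-base Polq transcript held 15, or 1.75 per kilobase, beside a median of 1.06 per kilobase over 2062 tested genes with a transcript. Mus81, Rad54b and Fanca held 3, 4 and 6, or 1.45, 1.39 and 1.34 per kilobase. The genes with the lower level in the knockout therefore include the lowest and the highest density among the 6, and m6A itself was not measured.

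Sfr1 was by far the most abundant of the 6. SFR1 forms a complex with SWI5 that promotes strand exchange. Wild-type libraries had 79.0, 85.4 and 81.9 FPKM of it and knockout libraries 52.5, 49.1 and 53.4 FPKM, and the groups did not overlap. In the overexpression control it was 53.6, 54.7 and 54.4 FPKM, and with Setdb1 60.4, 62.8 and 60.0 FPKM. All Setdb1 libraries lay above all control libraries and below all wild-type libraries. The mean was 82.1 ± 3.18 FPKM in wild type and 51.7 ± 2.28 FPKM in the knockout (SD, n = 3 each). It was 61.1 ± 1.49 FPKM with Setdb1, 74.4% of the wild-type mean. On the log2(FPKM + 1) scale the difference was -0.66 (SE 0.04) for knockout minus wild type and 0.17 (SE 0.04) for Setdb1 minus control. Control and knockout lay 0.196 FPKM apart at their nearest libraries. As these are bulk samples, fewer expressing cells and less RNA per cell cannot be told apart, here and for the other genes.

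Rad54b encodes a DNA translocase of the SWI2/SNF2 family that acts in strand exchange. The wild type had 2.79, 2.44 and 2.54 FPKM and the knockout 2.35, 2.72 and 2.21 FPKM, and these libraries overlapped. The control libraries were the low ones, at 1.96, 1.83 and 1.97 FPKM, below every other library. Setdb1 libraries stood at 2.91, 2.29 and 2.41 FPKM (2.54 ± 0.332 FPKM, SD, n = 3) and overlapped those of the wild type and of the knockout. The log2 difference was -0.07 (SE 0.07) for knockout minus wild type, -0.23 (SE 0.07) for control minus knockout and 0.27 (SE 0.07) for Setdb1 minus control. Without the 4 libraries with haemoglobin transcripts, the first of these was -0.24 (SE 0.12) and the second -0.14 (SE 0.10).

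Bard1 encodes the RING partner of BRCA1 in a ubiquitin ligase that promotes homologous recombination. It stood at 2.97, 2.78 and 3.04 FPKM in wild type and at 1.69, 1.83 and 1.81 FPKM in the knockout, with no overlap. The control libraries (1.77, 1.74 and 1.73 FPKM) and the Setdb1 libraries (1.67, 1.70 and 1.74 FPKM) stayed in the range of the knockout or just below it. All 3 knockout groups overlapped their neighbours in the order of levels, so wild type was the group that stood apart. The log2 difference was -0.50 (SE 0.04) for knockout minus wild type, a change of -39.4% in mean FPKM, and -0.02 (SE 0.04) for Setdb1 minus control.

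Mus81 encodes the catalytic subunit of an endonuclease that cuts branched recombination and replication intermediates. Its knockout level lay above the wild type, where those of Sfr1, Bard1 and Polq lay below. Wild-type libraries stood at 7.36, 7.04 and 7.05 FPKM and knockout libraries at 10.2, 9.77 and 10.2 FPKM, a change of 40.9% in mean FPKM. Control libraries were at 9.59, 9.61 and 9.74 FPKM and Setdb1 libraries at 7.49, 7.70 and 8.19 FPKM. Setdb1 libraries lay below all control libraries by at least 1.40 FPKM and above the wild type by at least 0.134 FPKM. The log2 difference was 0.44 (SE 0.03) for knockout minus wild type, -0.28 (SE 0.03) for Setdb1 minus control and 0.11 (SE 0.03) for Setdb1 minus wild type.

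Polq encodes DNA polymerase theta. Its level was 3.32, 3.18 and 3.25 FPKM in the wild type against 1.76, 1.86 and 1.90 FPKM in the knockout, a change of -43.4% in mean FPKM the most negative of the 6 in that comparison. Control libraries were lower still, at 1.49, 1.58 and 1.67 FPKM. Setdb1 libraries stood at 2.50, 2.06 and 2.16 FPKM, above every control and knockout library and below every wild-type library. The Setdb1 mean of 2.24 ± 0.229 FPKM was 69.0% of the wild-type mean. The log2 difference was -0.58 (SE 0.05) for knockout minus wild type and 0.33 (SE 0.05) for Setdb1 minus control.

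Fanca encodes a subunit of the Fanconi anaemia core complex, the ubiquitin ligase that marks crosslinked sites. Wild-type libraries (3.60, 3.59 and 3.88 FPKM) and knockout libraries (3.64, 3.73 and 3.71 FPKM) overlapped, with a log2 difference of 0.00 (SE 0.04). Control libraries were lower, at 3.28, 3.52 and 3.24 FPKM. Setdb1 libraries were the highest of all 12, at 4.51, 4.43 and 4.59 FPKM. The log2 difference for Setdb1 minus control was 0.34 (SE 0.04), and the Setdb1 mean was 122% of the wild-type mean.

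**Figure D2:**
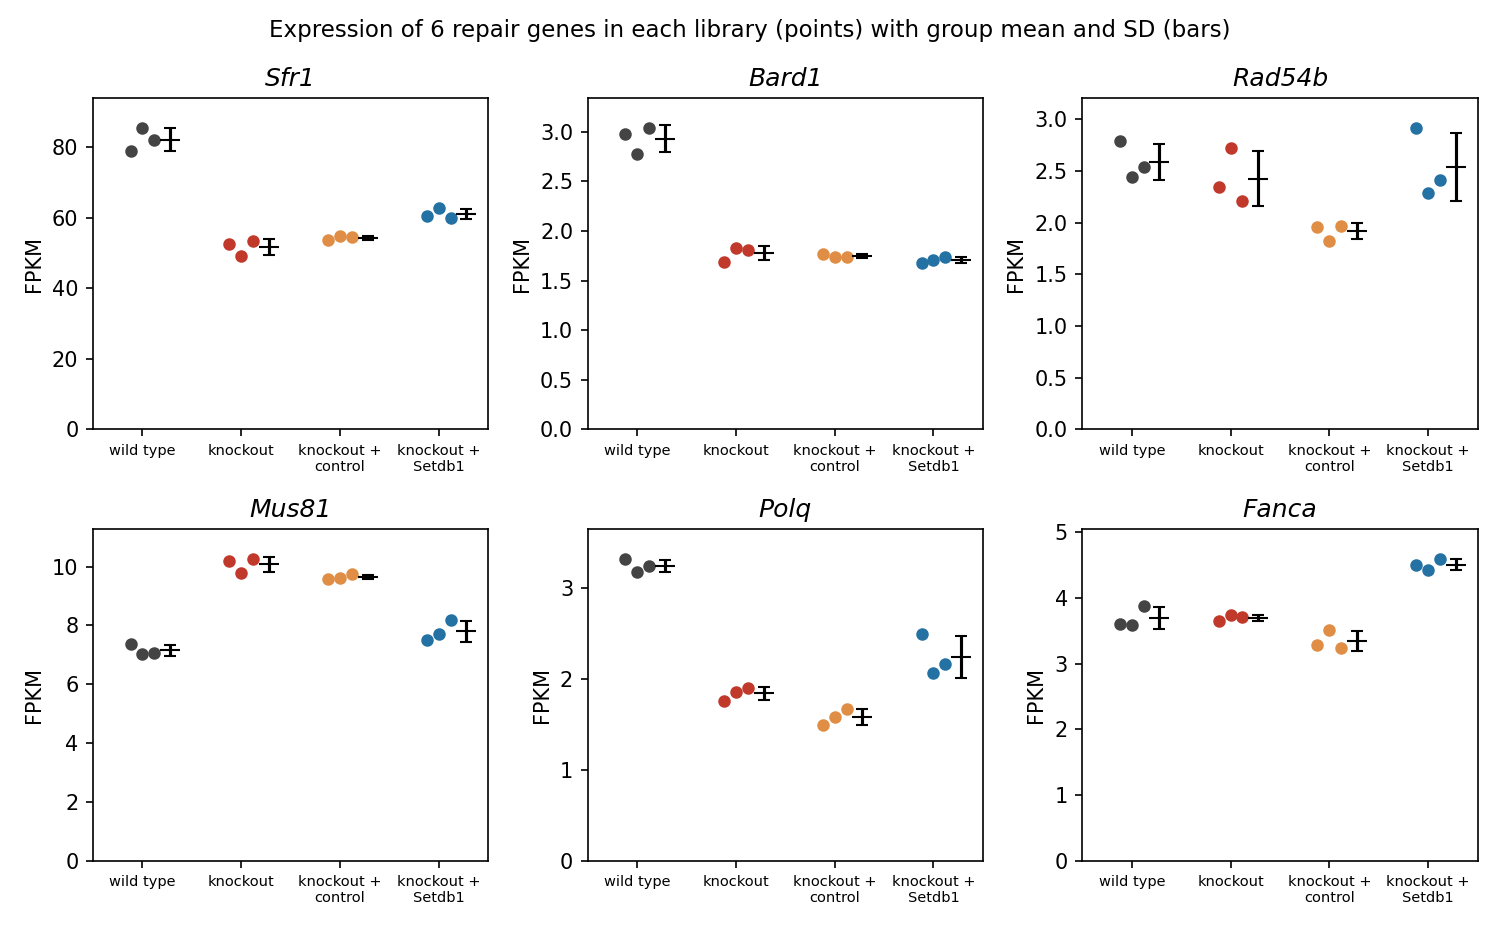
FPKM of the 6 genes in each of 12 libraries (points, 3 per group) with the group mean and SD (bars beside the points); each axis starts at 0. Sfr1, Bard1 and Polq are highest in wild type, Mus81 is highest in the knockout and its control, the Rad54b control libraries lie below all others, and the Fanca Setdb1 libraries lie above all others.

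Set side by side, 4 patterns over the groups appeared among the 6 genes. Sfr1 and Polq were lower in the knockout and higher with Setdb1 than in the control, without reaching the wild-type level. Mus81 did the reverse, with the Setdb1 group closest to the wild type. Bard1 was lower in all 3 knockout groups, with overlapping levels between them. Rad54b and Fanca overlapped between wild type and knockout, had their lowest level in the control and were higher with Setdb1. Over the 12 libraries Pearson's r of log2(FPKM + 1) was 0.93 for Sfr1 and Polq, 0.89 for Sfr1 and Bard1, -0.89 for Sfr1 and Mus81 and -0.16 for Bard1 and Fanca. These values share the 4 groups and are given as a description. Without the 4 libraries with haemoglobin transcripts, only 1 wild-type and 1 knockout library remain. Knockout minus wild type was then -0.56 for Sfr1, -0.50 for Bard1, -0.57 for Polq, 0.43 for Mus81 and 0.03 for Fanca.

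**Figure D3:**
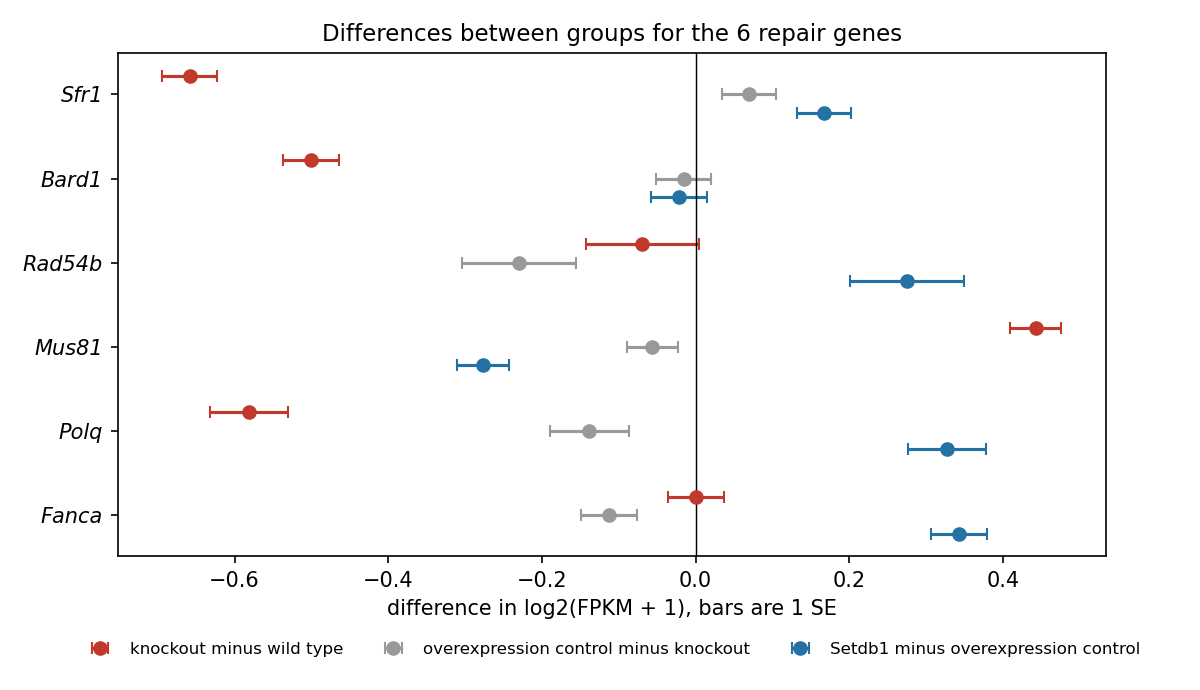
Differences between groups on the log2(FPKM + 1) scale for the 6 genes, with 1 SE from the fit over all 12 libraries. Knockout minus wild type (red) is negative for Sfr1, Bard1 and Polq and positive for Mus81, and Setdb1 minus control (blue) is positive for Sfr1, Rad54b, Polq and Fanca and negative for Mus81. The control group is on both sides of the grey and blue differences, with opposite signs.

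Differences over all 2063 genes were fitted with limma, with the threshold set at an adjusted p of 0.05. For knockout against wild type 4 of the 6 genes were past that threshold, 3 lower and 1 higher, beside 77.3% of all tested genes, with 39.5% lower and 37.8% higher. For Setdb1 against control 5 of 6 were past it, 4 higher and Mus81 lower, beside 67.9% of all tested genes, with 36.1% higher and 31.8% lower. For Setdb1 against wild type 5 of 6 were past it, with Sfr1, Bard1 and Polq lower and Mus81 and Fanca higher, beside 86.1% of all tested genes, with 45.3% lower and 40.8% higher. For control against knockout none of the 6 was past it in limma, beside 8.68% of all tested genes (5.04% lower and 3.64% higher). At an unadjusted p under 0.05 in limma the count was 3, beside 221 higher and 285 lower of the 2063 tested genes. That count is likewise only a description. Rad54b was past the threshold there on leaving out Setdb1 library 1, which enters only the shared estimate of the spread. Mus81 lost its call for Setdb1 against wild type without the 4 haemoglobin-bearing libraries (log2 difference 0.07, SE 0.05), and also with all 12 libraries and a model term for those 4 (0.08, SE 0.04). The median log2 difference of the 6 was -0.28 in the knockout and 0.22 with Setdb1 against control, beside -0.01 and 0.02 over all tested genes. Counted by overlap of libraries, 4 of 6 genes did not overlap between knockout and wild type (1 higher and 3 lower), beside 79.9% of all tested genes (39.1% higher and 40.8% lower). Between control and knockout 5 of 6 did not overlap (Sfr1 higher and 4 lower), beside 30% of all tested genes (13.7% higher and 16.2% lower). Between Setdb1 and control 5 of 6 did not overlap (4 higher and 1 lower), beside 73% (38.4% higher and 34.6% lower), and between Setdb1 and wild type 5 of 6 (2 higher and 3 lower), beside 86.5% (41% higher and 45.5% lower). The comparisons of control with knockout and of Setdb1 with control share the control libraries, so their level enters both. The authors' deposited table has a q-value for each gene, names no comparison and marks every row as significant. The q-values of the 6 genes are therefore not given.

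Other genes of the repair pathways were described from 100 listed genes, of which 40 were in the table, and the 34 that are not among the 6 were all tested. As the table held only rows marked significant by the authors, these 34 do not stand for the whole pathways. In the knockout 20 of these 34 fell and 9 rose, and 5 did not pass. That is 85.3% past the threshold, beside 77.3% of all tested genes (39.5% lower and 37.8% higher), with a median log2 difference of -0.23 beside -0.01 over all tested genes. The largest falls were in Rpa1 (-0.69) and Rpa2 (-0.42), subunits of the RPA complex that coats single-stranded DNA, in Uhrf1 (-0.62), a DNA methylation factor that also senses crosslinks, in Brca1 (-0.45) and in Zgrf1 (-0.44), a helicase of crosslink repair. The largest rises were in the Fanconi core factor gene Faap20 (0.44), the helicase genes Recql5 (0.41) and Fbh1 (0.38), which restrain recombination, Swi5 (0.29) and the BRCA1-A complex gene Babam1 (0.22). Adjusted p-values in limma ran from 1.89e-09 for Uhrf1 to 0.0313 for Swi5, whose difference was -0.07 (adjusted p = 0.699) without the 4 haemoglobin-bearing libraries. Rpa1 was uneven in wild type, at 32.0, 48.3 and 46.3 FPKM, and without the 4 haemoglobin-bearing libraries its difference was -0.29 (adjusted p = 0.00189 in limma). Without those libraries, a fit that leaves 1 wild-type and 1 knockout library and assumes that each varies like the other groups, 15 of the 34 fell and 4 rose.

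By role in the knockout, where 39.5% of all tested genes fell and 37.8% rose, 7 of the 11 other genes of strand exchange fell and 2 rose, with a median of -0.32. Of the 8 other genes of BRCA complexes 4 fell and 2 rose, and both tested genes of end resection, Mre11a (-0.36) and Rbbp8 (-0.17), fell. Without the haemoglobin-bearing libraries Rbbp8 missed the threshold (-0.14). Of 5 other genes of joint molecule resolution and restraint of recombination 3 fell and 2 rose. Of 8 other genes of crosslink repair 4 fell and 3 rose, with Fancd2, whose protein the core complex monoubiquitinates, at -0.41. Mre11a, Rbbp8 and Fancd2 were picked out here after their values were seen. Swi5 (-0.07), Spidr (0.15), Mms22l (-0.34), Brca2 (-0.09) and Sem1 (0.17) also missed the threshold without the haemoglobin-bearing libraries. Eme1 (-0.17), Rtel1 (-0.18), Ercc4 (0.05) and Fan1 (0.13) missed it too. That fit leaves 1 wild-type and 1 knockout library. No other gene of theta end joining was in the table.

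With Setdb1 against control, 13 of the 34 fell and 7 rose, or 58.8% past the threshold, beside 67.9% of all tested genes (31.8% lower and 36.1% higher). Their median was -0.09 beside 0.02 over all tested genes. The largest falls were in Mcm8 (-0.45), a helicase gene of recombination that went from 8.34 ± 0.473 to 5.83 ± 0.107 FPKM, in the annealing factor gene Rad52 (-0.37), in the BRCA1-A genes Babam2 (-0.36) and Abraxas1 (-0.28), and in Ube2t (-0.32), which encodes the ubiquitin-conjugating enzyme of the Fanconi pathway. The largest rises were in Eme1 (0.29), Zgrf1 (0.25), the nuclease gene Ercc4 (0.24), Uhrf1 (0.23) and Smc5 (0.20), a subunit of an SMC complex of recombination. Adjusted p-values of these 10 genes in limma ran from 3.23e-06 for Uhrf1 to 0.00696 for Zgrf1 among the rises and from 2.71e-05 for Mcm8 to 0.00671 for Ube2t among the falls. This comparison and that of knockout with wild type share no library. Of the 20 genes that fell in the knockout 5 rose and 7 fell with Setdb1, beside 275 and 257 of the 815 tested genes that fell. Sfr1 and Polq were higher and Bard1 was not past the threshold.

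**Figure D4:**
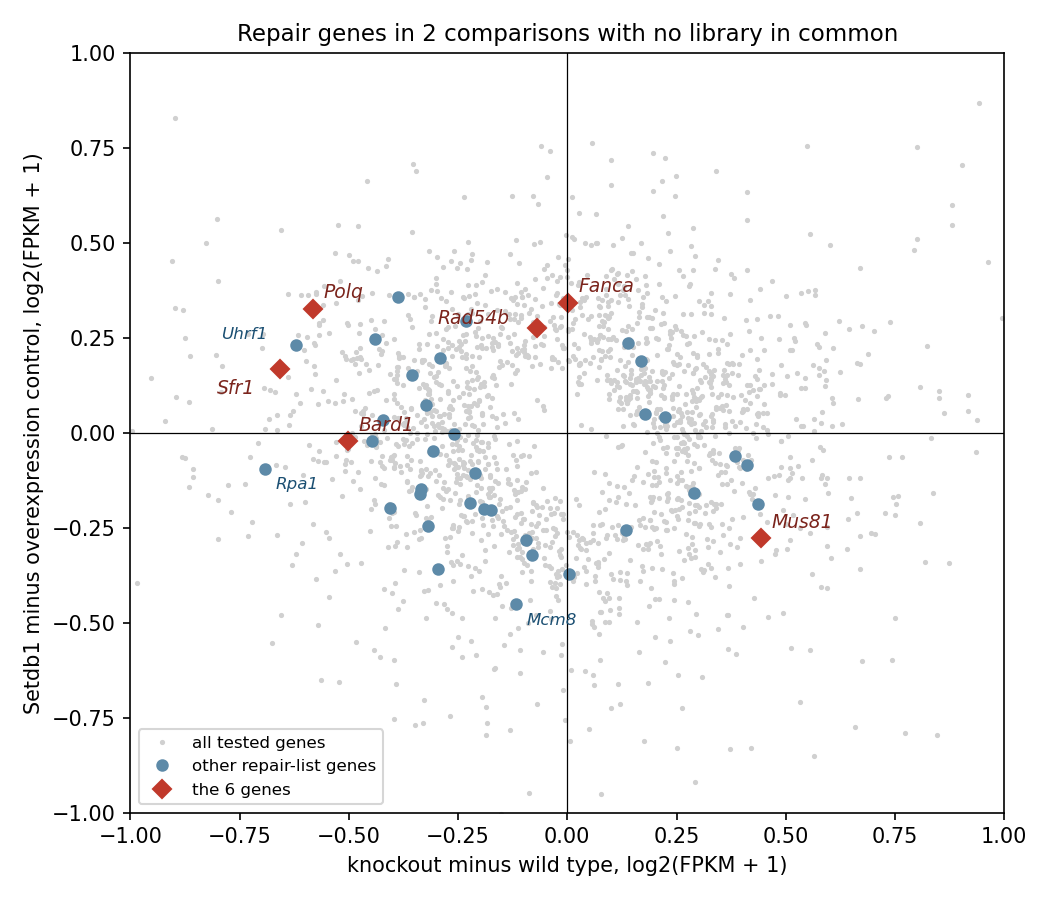
Differences for knockout minus wild type (horizontal) and Setdb1 minus overexpression control (vertical), both on the log2(FPKM + 1) scale; grey points are all tested genes, of which 68 lie outside the axes, blue points the 34 other repair genes and red diamonds the 6 genes. Sfr1 and Polq lie at the upper left, Mus81 at the lower right, Bard1 at the left near 0 on the vertical axis, and Rad54b and Fanca near 0 on the horizontal axis.

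In the overexpression control against the knockout 2 of the 34 fell and none rose in limma, beside 5.04% and 3.64% of all tested genes. At an unadjusted p under 0.05 in limma 2 were higher and 4 lower, beside 221 and 285 of the 2063 tested genes. The falls were in Smc5 (-0.17, adjusted p = 0.0186) and Uhrf1 (-0.13, adjusted p = 0.003) in limma. Smc5 lost the call on leaving out knockout library 1 or 3 or control library 2 or 3, with adjusted p up to 0.0543, and without the 4 haemoglobin-bearing libraries (adjusted p = 0.242), where Uhrf1 also missed it (adjusted p = 0.109). Setdb1 cells against wild type had 24 of the 34 lower and 7 higher past the threshold, or 91.2%, beside 86.1% of all tested genes (45.3% lower and 40.8% higher), with a median of -0.29 beside -0.04. Among the largest falls there were those in Rpa1 (-0.76, and -0.40 without the haemoglobin-bearing libraries), Fancd2 (-0.61), Uhrf1 (-0.52) and Mcm8 (-0.50). The largest rises were in Fbh1 (0.32), Sem1 (0.31), a BRCA2 partner gene, the nuclease genes Fan1 (0.30) and Ercc4 (0.27), and Recql5 (0.24).

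For 3 of the 6 proteins, a known partner's gene was measured, and these pairs were picked out after their values were seen. Brca1, the partner of Bard1, stood at 6.41 ± 0.344 FPKM in wild type, 4.46 ± 0.677 in the knockout, 5.27 ± 0.0291 in the control and 5.18 ± 0.288 with Setdb1 (SD, n = 3 each), so both were highest in wild type. Eme1, the partner of Mus81, stood at 5.78 ± 0.285, 4.78 ± 0.311, 4.66 ± 0.209 and 5.94 ± 0.325 FPKM in the same order. Eme1 went the opposite way to Mus81 in 2 comparisons: it fell in the knockout (-0.23, adjusted p = 0.00229 in limma) and rose with Setdb1 (0.29, adjusted p = 0.000637 in limma). The knockout call of Eme1 was lost without the haemoglobin-bearing libraries (-0.17, adjusted p = 0.143 in limma). Swi5, the partner of Sfr1, had 20.5, 17.5 and 17.7 FPKM in the wild type and 25.9, 23.6 and 19.5 FPKM in the knockout, and the libraries overlapped. Its rise of 0.29 no longer passed once any of wild-type libraries 2 and 3 and knockout libraries 1 and 2 was dropped, with adjusted p up to 0.124 in limma, and its sign turned without the haemoglobin-bearing libraries (-0.07, adjusted p = 0.699 in limma).

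The genes whose pattern over the 12 libraries was most like each of the 6, by Pearson's r of log2(FPKM + 1), were named by rank. For Sfr1 they were Ahcyl1, the lectin-like receptor gene Olr1 and the cohesin gene Rad21, each with r of 0.99. For Bard1 they were the chromatin protein gene Hmga2, the adhesion scaffold gene Nedd9 and the urokinase gene Plau, each with r of 0.99, all of them low in the 3 knockout groups. For Polq they were the prostaglandin synthase gene Ptgs2 (0.99), Dhrs3 (0.98) and the mitotic kinase gene Aurka (0.98). For Mus81 they were the nuclear receptor gene Nr1d1, Tnks1bp1 and Lrsam1, each with r of 0.98. For Rad54b they were Luc7l2 (0.88), Troap (0.87) and E2f8 (0.83), and for Fanca the helicase gene Ddx39 (0.97), the mitotic kinase gene Plk1 (0.96) and the cyclin gene Ccne1 (0.96). These correlations rest on 4 groups and are given as a description. Aurka, Plk1 and E2f8 are also on the list of S phase and mitosis genes described next.

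Of 34 listed genes of S phase and mitosis 26 were tested, and their summed level was 884 to 891 FPKM in wild type, 685 to 698 in the knockout, 681 to 702 in the control and 737 to 739 with Setdb1. In the knockout 23 fell and 2 rose, with a median of -0.34, beside 39.5% of all tested genes that fell and 37.8% that rose. With Setdb1 against control 16 rose and 6 fell, with a median of 0.19, beside 36.1% that rose and 31.8% that fell, while the 34 other repair genes had a median of -0.09. Their part in the differences of the 6 genes was not tested.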

How the data were processed

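RNA of 12 libraries of GC1 cells was measured by RNA-seq. The authors deposited 1 table of FPKM values per gene and library, and beside them a p-value and a q-value for each gene, without naming the comparison behind them. Tools listed, per the submitters' processing notes, are HISAT2, cutadapt, DESeq2, StringTie and edgeR, without role or version. The sources used here name no build or annotation. No counts were used, so depth is unknown and values carry no counting interval. All 2281 IDs matched a symbol. The members and gene lists were chosen with earlier results of these data known.

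Genes with at least 1 FPKM in at least 3 libraries (2063, with 218 left out) were analysed as log2(FPKM + 1), which understates the change of low genes. The limma-trend fit (limma 3.58.1, R 4.3.3) took all 12 libraries together, with 1 mean for each group and two-sided p-values adjusted by Benjamini-Hochberg over the tested genes, and the steps were tested on simulated data. Rose and fell are used at an adjusted p under 0.05. Only rows already marked significant by the authors were adjusted over, so this threshold does not control false calls as it would over all genes. Genes named were the 6, the 3 tested genes most like each, and the 5 largest falls and rises of the other listed repair genes in each comparison, of which 1 fall is not reported here. Alternatives changed the pseudocount, filter, scaling, spread, libraries and replicate block. Positions and transcripts came from GENCODE M21 and promoters from RefSeq.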

Additional observations from a re-analysis of the deposited data

How the results depend on the processing

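Of the alternatives tried, none turned the sign of a difference of the 6 genes that was past the threshold. The fits with replicate number as a block left all calls of the 6 as they were. Same-numbered libraries did not deviate together (r of deviations from group means -0.70 to 0.41, over 0.1 in 1 of 18 pairs), so the numbers were not taken as pairs. Libraries of wild type and knockout did share deviations by haemoglobin content. For wild-type library 1 and knockout library 3 r was 0.77, and between haemoglobin-bearing libraries of these groups 0.35 to 0.64. Where only 1 of the pair bore haemoglobin, r was -0.70 to -0.49. The main fit took libraries as independent. The replicate block gave 1586 genes past the threshold in the knockout, 126 for control against knockout, 1389 for Setdb1 against control and 1770 for Setdb1 against wild type, beside 1594, 179, 1400 and 1776. With a minimum of 5 FPKM only Sfr1 and Mus81 of the 6 were tested, so the number past the threshold was 2 in the knockout and in both Setdb1 comparisons. With that filter 23 of the 34 other repair genes were tested, and 4 rose with Setdb1 against control and 4 against wild type, and 1 rose in the control, as 1 did with median-of-ratios scaling and 1 with quantile normalization (Babam2, adjusted p = 0.0448, 0.0431 and 0.049 in limma). For control against knockout 107 genes were past the threshold with only those 2 groups in the fit, 66 with a model term for the haemoglobin-bearing libraries and 41 without them, and 1 and 0 other repair genes fell in the last 2. Without them 4 other repair genes rose in the knockout. The share of rises among the calls for control against knockout was 41.9%, and 52.7% with quantile normalization. Leaving out 1 library at a time gave 1504 to 1598 genes in the knockout, 93 to 168 for control against knockout, 1301 to 1396 for Setdb1 against control and 1691 to 1776 against wild type. It gave 4 of the 6 genes in the knockout, 0 to 1 for control against knockout, and 5 in both Setdb1 comparisons. Among the 34 it gave 19 to 22 falls and 6 to 9 rises in the knockout, 1 to 2 falls and 0 to 1 rises in the control, 13 to 14 falls and 6 to 7 rises for Setdb1 against control, and 23 to 24 falls and 7 rises against wild type. A pseudocount of 0.1 moved the differences of low genes away from 0, in the knockout to -0.69 for Bard1 and -0.79 for Polq, to -0.56 for Rad52 with Setdb1 against control and to 0.49 for Fan1 against wild type. Quantile normalization gave 0.17 for Mus81 in that last comparison. A smaller pseudocount shrinks the differences of low genes less, as a matter of arithmetic. The causes of the other shifts were not tested. The low levels of Bard1, Rad54b and Polq have an unknown sampling error without counts.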
